A study of Homo sapiens with 8 samples.

Results

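The genes described here are 10 regulators of apoptosis, the programmed death of cells: BCL2L1, MCL1, BAX, BAK1, BID, BAD, BCL2L11, BBC3, PMAIP1 and IER3. They were selected by gene name, and all 10 were found among the 16383 genes of the deposited count table and among the 16383 genes of the deposited table of FPKM values (fragments per unit of gene length and sequencing depth). All 10 also passed the filter on low counts. BCL2 family proteins set whether the outer mitochondrial membrane stays closed. Anti-apoptotic members such as BCL-XL, the long product of BCL2L1, and MCL1 bind and hold their pro-apoptotic relatives, whereas the effectors BAX and BAK1 form the pores through which cytochrome c leaves and sets off the caspases. BH3-only proteins, named after the short helix by which family members bind each other, carry stress signals to that balance by occupying the anti-apoptotic proteins or by activating the effectors. IER3 is an early response gene linked to survival signalling and is not a BCL2 homologue.

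The cells were MDA-MB-231, a human triple-negative breast cancer line with mesenchymal features, grown in DMEM with fetal bovine serum. One group of 4 libraries came from cells given 5 µM c-di-GMP, a bacterial second messenger that mammalian STING binds, for 24 h, and the other group of 4 came from cells given the vehicle, phosphate-buffered saline, for the same time. The series' title concerns metastasis and PSMD3, a subunit of the proteasome, which degrades short-lived regulators such as the MCL1 and PMAIP1 proteins. Only total RNA was sequenced, so protein levels were not analysed here, and the labels do not say if each library had a culture of its own. A p-value here therefore reflects the spread among these 8 libraries, which may be technical.

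The libraries held between 16151360 and 18040010 counts in listed genes, and the level of every member lay above 3 counts, which is 0.166 to 0.186 CPM (counts at a common library size). Of the 7 mesenchymal markers checked, 7 were listed, with a summed FPKM of 762 to 773 in vehicle replicates 1, 2 and 4 and 796 to 805 with c-di-GMP. Of the 7 luminal markers 4 were listed, with a sum of 9.20 to 10.4 in these 7 libraries, and ESR1, PGR and FOXA1 were not listed. Of the 7 markers of other cell types 3 were listed, with a sum of 2.63 to 3.02, and PTPRC, CD3E, CD68 and CDH5 were not listed. Vehicle replicate 3 stood apart: 87.8% of 15415 genes had a CPM outside the range of the other 7 libraries there. Its mesenchymal sum of 731 hid shifts in opposite directions. VIM was high there (411 FPKM, others 116 to 148), and AXL (77.7, others 206 to 241) and MSN (37.3, others 169 to 181) were low. Its luminal sum of 30.7 came mostly from EPCAM (22.5, others 4.36 to 5.94). GATA3 was high there too (6.93, others 2.62 to 3.96), whereas CDH1 was low (0.252, others 0.299 to 0.628). Among markers of other cell types PECAM1 was high (2.25, others 1.03 to 1.24). ACTA2 (0.203, others 0.486 to 0.952) and PDGFRB (0.254, others 0.831 to 1.15) were low. The biological coefficient of variation was 36.3% with all 8 libraries and 4.52% without vehicle replicate 3, so the result of each member is given with and without this library. Among the 7 remaining libraries the fold changes of all genes also moved with the GC content of the transcript (Spearman rho −0.59 across 15643 genes, which are not independent replicates), and fold changes are therefore also given with a GC trend removed from each library.

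The element that 9 of the 10 genes share is the BH3 helix, and the bases that encode its core show the relation that groups them. A coding pattern was searched in frame: a leucine codon, a codon for arginine, alanine or lysine, 2 codons of any kind, a codon for glycine, alanine or serine, and an aspartate codon. This pattern was chosen to match the known BH3 core, and it occurred once in each of the 9 family members, not in IER3, and in 1345 of 13079 coding sequences of listed genes (10.3%), so a match alone does not name a BH3 domain. The 42 bases around each match, with 4 codons on either side, are printed 5′ to 3′ from GRCh38 as annotated in GENCODE v29, with the leucine, glycine, alanine or serine, and aspartate codons in capitals.
BCL2L1, chr20:31721922-31721963, minus strand: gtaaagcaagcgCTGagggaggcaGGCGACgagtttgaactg
MCL1, chr1:150578865-150578906, minus strand: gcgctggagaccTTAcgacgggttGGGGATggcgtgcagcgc
BAX, chr19:48955775-48955816, plus strand: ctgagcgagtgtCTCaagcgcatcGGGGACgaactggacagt
BAK1, chr6:33575387-33575428, minus strand: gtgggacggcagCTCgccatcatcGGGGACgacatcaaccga
BID, chr22:17739415-17739456, minus strand: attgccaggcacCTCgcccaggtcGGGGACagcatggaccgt
BAD, chr11:64271622-64271663, minus strand: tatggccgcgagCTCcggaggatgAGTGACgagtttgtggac
BCL2L11, chr2:111150091-111150132, plus strand: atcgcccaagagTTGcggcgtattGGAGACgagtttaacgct
BBC3, chr19:47226579-47226620, minus strand: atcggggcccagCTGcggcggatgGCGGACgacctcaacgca
PMAIP1, chr18:59902661-59902702, plus strand: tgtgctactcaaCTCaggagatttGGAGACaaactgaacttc
Each stretch lies within a single coding exon. The match covered codons 90 to 95 of 233 in BCL2L1 but codons 29 to 34 of 54 in PMAIP1, the shortest coding sequence of the 10. BBC3 had the coding sequence richest in GC (76.3%), BCL2L11 the one with the least (51.6%), and the 42 bases of BBC3 (71.4% GC) and PMAIP1 (42.9% GC) also marked the ends of the range. The GC content of whole transcripts, on which the correction below rests, ran from 37.2% for PMAIP1 to 69.7% for BBC3.

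With all 8 libraries, none of the 10 genes passed an adjusted p of 0.05 by edgeR's quasi-likelihood test, as was so for every other gene (0 of 15415 called, 0%), and DESeq2 called BBC3 alone (101 of 16383 genes called, 0.616%). Limma-voom with library quality weights called 7 of the 10, where it called 35.2% of all genes. At an unadjusted p under 0.05 by edgeR, 4 members stood lower with c-di-GMP (IER3, BAK1, BAD and BBC3), against 6.23% of all genes. Without vehicle replicate 3, the same 4 fell and 2 rose (BID and PMAIP1), which makes 6 of 10 called where 29.6% of all 15647 genes tested were called (13.5% higher and 16.2% lower). Once the GC trend was removed, 4 of 10 were called (15.2% of all genes, 8.58% higher and 6.62% lower): IER3 fell, and BCL2L1, BAX and BID rose. With gene length corrected as well, 3 of 10 were called (13.4% of all genes, 7.66% higher and 5.74% lower): IER3 fell, and BCL2L1 and BID rose. IER3 was the member called lower, and BID the member called higher, both with and without the GC trend. The median log2 fold change of the 10 members was −0.32 with 8 libraries, −0.01 with 7 and 0.02 after GC correction, beside −0.0494, 0.0014 and −0.0029 for all genes tested.

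**Figure D1:**
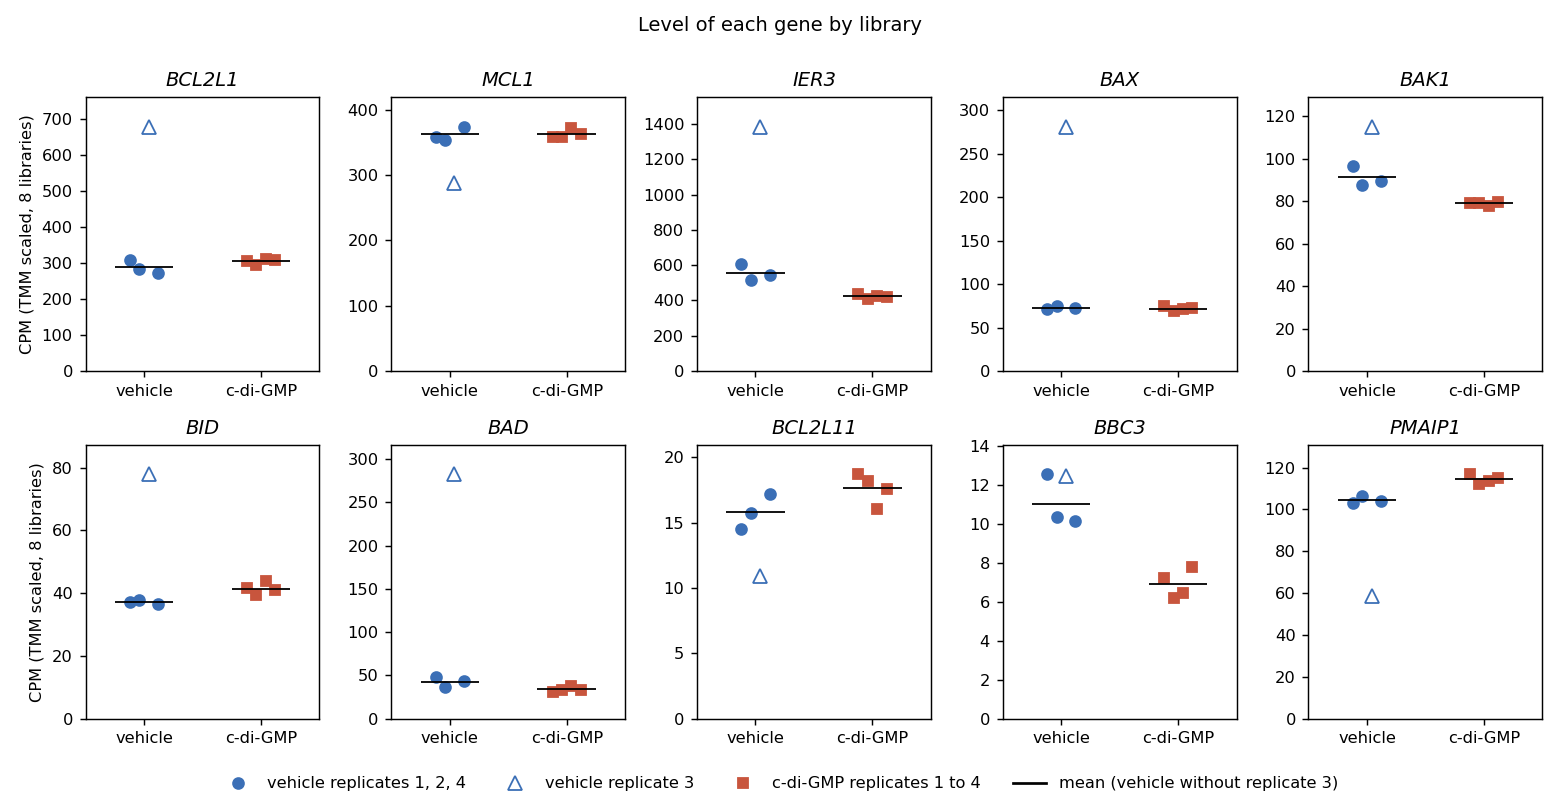
Level of each of the 10 genes in each of the 8 libraries, in CPM after scaling by trimmed mean of M values (TMM) over 8 libraries, with a separate linear axis from 0 for each gene; lines are means, that of vehicle without replicate 3. Vehicle replicate 3 (open triangle) lies outside the other 7 libraries for 9 of the 10 genes, and the c-di-GMP libraries lie below vehicle replicates 1, 2 and 4 for IER3, BAK1 and BBC3.

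The CPM values of the groups did not overlap for 4 members with all 8 libraries (14.2% of all genes), where IER3, BAK1 and BBC3 were lower and PMAIP1 was higher with c-di-GMP. Without vehicle replicate 3 the number was 5 (35.7% of all genes), the same 4 and BID. On GC-corrected CPM it was 4 (23.5% of all genes): IER3 on the lower side and BCL2L1, BAX and BID on the higher side.

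**Figure D2:**
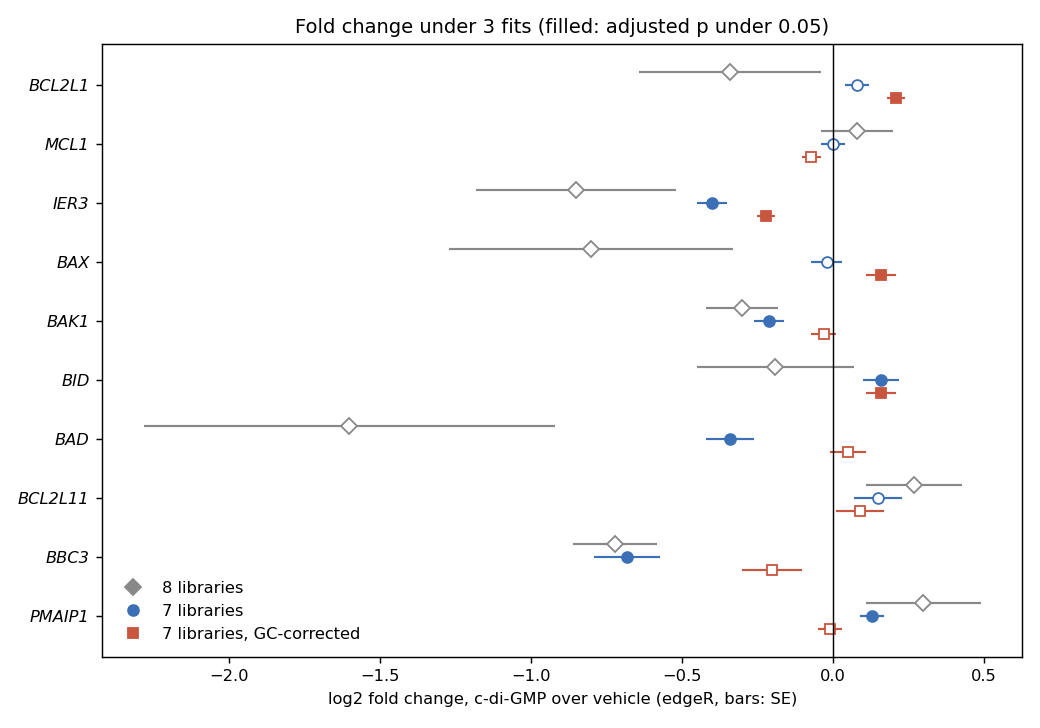
Log2 fold change of each member, c-di-GMP over vehicle, with its standard error, from 3 edgeR fits; filled symbols have an adjusted p under 0.05. IER3 is the member that is filled on the left of 0 with and without GC correction, whereas BBC3, BAK1 and BAD are filled on the left before the correction and open after it.

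Levels of different genes are compared on the FPKM scale, which is per length. Over the 7 libraries without vehicle replicate 3, IER3 was the most abundant member, at 301 to 441 FPKM, which placed its mean at the 99.7 percentile of listed protein-coding genes. Next came BCL2L1 (81.0 to 93.9 FPKM) and MCL1 (80.1 to 84.9 FPKM), whose ranges overlapped although BCL2L1 was the higher of the pair in 6 of 7 libraries. PMAIP1 followed at 45.6 to 52.3 FPKM and BAK1 at 35.2 to 43.1 FPKM, with no overlap between these neighbours. BAX (26.5 to 28.7 FPKM) and BAD (18.3 to 28.1 FPKM) overlapped, BID lay at 8.10 to 9.85 FPKM, and BBC3 (1.94 to 3.90 FPKM) and BCL2L11 (2.16 to 2.81 FPKM) overlapped at the bottom, at percentiles 27.6 and 26.2 of listed protein-coding genes. The cells thus carried far more RNA of BCL2L1, MCL1 and PMAIP1 than of the BH3-only genes BBC3 and BCL2L11. Anti-apoptotic genes outside the members are not part of this comparison.

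Of the summed FPKM of the 9 BCL2 family genes, BCL2L1 and MCL1 together took 52.1% to 52.4% in vehicle replicates 1, 2 and 4 and 53.8% to 54.4% in the c-di-GMP libraries. The effectors BAX and BAK1 took 21.2% to 21.5% in these vehicle libraries and 19.0% to 19.9% with c-di-GMP. The 5 BH3-only genes took 26.1% to 26.7% and 26.1% to 26.6%, ranges that overlapped. In vehicle replicate 3 the shares were 41.9%, 24.8% and 33.2%, outside all of these ranges. As a ratio of FPKM, BCL2L1 to BAK1 was 2.03 to 2.17 in the 3 vehicle libraries, 2.50 to 2.67 with c-di-GMP and 3.94 in vehicle replicate 3. The ratio of MCL1 to BBC3 was 20.8 to 26.9, 34.0 to 42.2 and 16.9 in the same order. The ratio of MCL1 to PMAIP1 lay the other way, at 1.70 to 1.84, 1.57 to 1.67 and 2.51. The ratio of BCL2L1 to BAX, at 2.95 to 3.42 and 3.20 to 3.44, overlapped between the groups. These ratios are descriptions and were not tested, and they carry the GC trend of their genes.

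Among the anti-apoptotic genes, BCL2L1 (ENSG00000171552, chr20:31664452-31723989, minus strand, GRCh38) had TMM-scaled CPM of 330, 301 and 289 in vehicle replicates 1, 2 and 4, and 323, 314, 330 and 328 in c-di-GMP replicates 1 to 4. The groups overlapped, since vehicle replicate 1 was as high as the treated libraries. The log2 fold change was 0.08 ± 0.04 (SE, adjusted p = 0.198 by edgeR, 7 libraries). GC-corrected values were 296, 294 and 279 CPM against 334, 328, 339 and 342 CPM, and every treated library lay above every vehicle library. There BCL2L1 rose by 15.9% (log2 fold change 0.21 ± 0.03, edgeR adjusted p = 4.75e-05), and it was called in each of the 7 fits that left out a further library (0.19 to 0.23). Without GC correction, leaving out vehicle replicate 1 gave the same call (0.13, edgeR adjusted p = 0.00682), as did limma-voom with quality weights (0.15, limma-voom adjusted p = 0.00026). Over the 17 alternatives for the 7 libraries its adjusted p ran from 4.75e-05 to 0.652. With all 8 libraries the log2 fold change was −0.34 ± 0.30 (edgeR adjusted p = 0.680), since vehicle replicate 3 held 680 CPM where the other vehicle libraries held 272 to 310 on the same scaling. Limma-voom, which gave that library a low weight, put BCL2L1 at 0.14 there (limma-voom adjusted p = 0.00744). Because ABALON, an antisense transcript, shares 43.0% of the exonic bases of BCL2L1 and nothing says whether the counts kept the strand, their reads could not be told apart in that stretch. ABALON itself held 2.21% as many counts as BCL2L1 and fell, by 0.34 on the log2 scale (edgeR adjusted p = 0.0204).

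MCL1 (ENSG00000143384, chr1:150574551-150579738, minus strand) encodes the short-lived anti-apoptotic protein that PMAIP1 opposes. Its CPM was 381, 375 and 398 in vehicle replicates 1, 2 and 4, and 379, 381, 394 and 385 with c-di-GMP. The groups lay on top of each other. The log2 fold change was −0.00 ± 0.04, with a 95% interval of −0.08 to 0.08 (edgeR adjusted p = 0.992), and MCL1 was called in none of the 17 alternatives for the 7 libraries (−0.08 to 0.02) or of the 18 for the 8 libraries. The sign of its fold change turned with the scaling, as 0.00 with library totals or with DESeq2 size factors. Vehicle replicate 3 held 289 CPM on the 8-library scaling, below the other vehicle libraries at 354 to 374.

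Of the effectors, BAK1 (ENSG00000030110, chr6:33572547-33580293, minus strand) showed the clearer difference before GC correction. Its CPM was 103, 92.7 and 95.2 in vehicle replicates 1, 2 and 4 against 83.6, 84.0, 82.4 and 84.4 with c-di-GMP. All treated libraries lay below all vehicle libraries, and the coefficient of variation of the treated ones was 1.03%, below the 2.64% that counting error alone gives. BAK1 fell by 13.6% (log2 fold change −0.21 ± 0.05, edgeR adjusted p = 0.00128). After GC correction the CPM was 89.5, 89.6 and 90.6 against 87.5, 88.9, 85.7 and 89.5, and BAK1 was not called (−0.03 ± 0.04, edgeR adjusted p = 0.621). With 8 libraries its value was −0.30 ± 0.12 (edgeR adjusted p = 0.623). Of 903 genes within 1 percentage point of its GC content of 58.8%, the median log2 fold change was −0.19, which placed BAK1 at percentile 43.4 among them. Its processed pseudogene BAK1P1 held 77 counts over all libraries. Counts alone do not show how reads that match both copies were treated, so a split of reads between them is possible and cannot be sized.

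BAX (ENSG00000087088, chr19:48954815-48961798, plus strand) had CPM of 75.4, 79.3 and 76.6 in the vehicle libraries and 78.7, 72.9, 74.9 and 77.2 with c-di-GMP. The groups overlapped, and the log2 fold change was −0.02 ± 0.05 (edgeR adjusted p = 0.762). After GC correction the CPM was 65.6, 76.7 and 72.8 against 82.4, 77.3, 78.0 and 81.8, with a narrow gap between vehicle replicate 2 and c-di-GMP replicate 2. There BAX rose by 11.5% (log2 fold change 0.16 ± 0.05, edgeR adjusted p = 0.0213). That call was lost when vehicle replicate 1 (0.10, edgeR adjusted p = 0.219), vehicle replicate 4 (0.17, 0.0507), c-di-GMP replicate 1 (0.14, 0.0751) or c-di-GMP replicate 4 (0.14, 0.0739) was left out, and when gene length was also corrected (0.10, 0.115). In vehicle replicate 3 BAX reached 281 CPM where the other vehicle libraries held 70.9 to 74.9, and with that library the log2 fold change was −0.80 ± 0.47 (edgeR adjusted p = 0.623).

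Among the BH3-only genes, BBC3 (ENSG00000105327, chr19:47220822-47232766, minus strand), which encodes PUMA and is induced by stress factors, had the fold change farthest from 0 of the 10 members in the 7 libraries. Its CPM was 13.4, 10.9 and 10.8 in vehicle replicates 1, 2 and 4, and 7.61, 6.57, 6.83 and 8.24 with c-di-GMP. No treated library reached the lowest vehicle library. BBC3 fell by 37.4% (log2 fold change −0.68 ± 0.11, edgeR adjusted p = 5.87e-05), and vehicle replicate 3, at 12.4 CPM on the 8-library scaling, lay within the other vehicle libraries (10.1 to 12.6). With 8 libraries the log2 fold change was −0.72 ± 0.14, at an unadjusted p of 0.000926 that ranked 12th of all genes, an edgeR adjusted p of 0.623 and a DESeq2 adjusted p of 0.00534. Adjusted p ran from 5.87e-05 to 0.858 over its 18 alternatives there. After GC correction the CPM was 9.81, 9.88 and 9.13 against 8.51, 7.73, 7.72 and 9.47, the groups overlapped and the call was lost (−0.20 ± 0.10, edgeR adjusted p = 0.191). BBC3 has the highest GC content of the members, 69.7%, and the 55 genes within 1 percentage point of it had a median log2 fold change of −0.56. Counts behind it were low, 113 to 235 per library without vehicle replicate 3, so that counting error alone gave a coefficient of variation of 8.93% in the treated group where 10.4% was measured.

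PMAIP1 (ENSG00000141682, chr18:59899948-59904306, plus strand) encodes NOXA, the BH3-only partner of MCL1. Its CPM was 110, 113 and 111 in the vehicle libraries and 124, 119, 120 and 122 with c-di-GMP. Every treated library lay above every vehicle library, and the coefficient of variation within groups was 1.40% and 1.53%. PMAIP1 rose by 9.18% (log2 fold change 0.13 ± 0.04, edgeR adjusted p = 0.0251). The call was lost without vehicle replicate 4 (0.12, edgeR adjusted p = 0.0796), c-di-GMP replicate 1 (0.11, 0.0997) or c-di-GMP replicate 4 (0.12, 0.0833). After GC correction it was at −0.01 ± 0.04 (edgeR adjusted p = 0.927), with CPM of 121, 116 and 113 against 119, 114, 117 and 116. PMAIP1 has the lowest GC content of the members, 37.2%, and 820 genes within 1 percentage point of it had a median log2 fold change of 0.14. Vehicle replicate 3 was low, at 58.7 CPM where the others held 103 to 106 on the 8-library scaling, and with it the value was 0.30 ± 0.19 (edgeR adjusted p = 0.623).

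The promoters of BBC3 and PMAIP1, the BH3-only genes best known for control at the level of transcription, are shown because these members lie at the ends of the GC range and moved in opposite directions before GC correction. Promoters of 8 members were matched in a RefSeq table for GRCh38.p14 that gives 300 bases around each annotated start. In capitals are matches to the AP-1 site TGAGTCA and to TGACG, the core of the cAMP response element, searched on both strands.
BBC3 promoter, chr19:47232618-47232917, minus strand: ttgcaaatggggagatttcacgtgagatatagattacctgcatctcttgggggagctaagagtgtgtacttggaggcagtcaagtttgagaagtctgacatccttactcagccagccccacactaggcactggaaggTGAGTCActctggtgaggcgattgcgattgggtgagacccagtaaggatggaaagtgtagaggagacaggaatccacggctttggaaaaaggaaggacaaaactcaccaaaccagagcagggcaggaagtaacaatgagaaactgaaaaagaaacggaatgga
PMAIP1 promoter, chr18:59899746-59900045, plus strand: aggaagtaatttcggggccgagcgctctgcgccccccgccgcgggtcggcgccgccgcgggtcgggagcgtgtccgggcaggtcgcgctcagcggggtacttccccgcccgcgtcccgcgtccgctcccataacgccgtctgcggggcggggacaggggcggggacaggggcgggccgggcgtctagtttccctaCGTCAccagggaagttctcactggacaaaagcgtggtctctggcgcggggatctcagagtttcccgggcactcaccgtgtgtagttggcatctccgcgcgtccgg
The BBC3 window held 1 AP-1 site, which 4.95% of 35116 promoters of this length hold, and 1 E-box (CACGTG, held by 7.26%). The PMAIP1 window held 1 TGACG (held by 24.6%) and 4 GC boxes (GGGCGG, held by 45.0%). The BBC3 window held 48.0% GC and 5 CpG and the PMAIP1 window 71.3% GC and 42 CpG, the reverse of the order of their transcripts. A match describes these letters only.

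BID (ENSG00000015475, chr22:17734138-17774770, minus strand) encodes the BH3 protein that caspase 8 cuts, which joins the death receptors to the mitochondria. Its CPM was 39.4, 40.0 and 38.8 in vehicle replicates 1, 2 and 4, and 44.0, 41.8, 46.4 and 43.4 with c-di-GMP. All treated libraries lay above all vehicle libraries. BID rose by 11.4% (log2 fold change 0.16 ± 0.06, edgeR adjusted p = 0.0413), and the estimate was the same after GC correction (0.16 ± 0.05, edgeR adjusted p = 0.0342). At a GC content of 49.7% the neighbouring 993 genes had a median of −0.02. The call was a narrow one: leaving out any of 6 of the 7 libraries ended it (all except c-di-GMP replicate 2), with log2 fold changes of 0.13 to 0.17 and edgeR adjusted p from 0.0517 without vehicle replicate 2 to 0.133 without c-di-GMP replicate 3. Its GC-corrected call was lost without vehicle replicate 1 (0.16, edgeR adjusted p = 0.0978), vehicle replicate 4 (0.16, 0.109), c-di-GMP replicate 1 (0.16, 0.0677), c-di-GMP replicate 3 (0.13, 0.130) or c-di-GMP replicate 4 (0.17, 0.0627). With 8 libraries the log2 fold change was −0.19 ± 0.26 (edgeR adjusted p = 0.782), as vehicle replicate 3 held 78.0 CPM against 36.5 to 37.8 in the other vehicle libraries.

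BAD (ENSG00000002330, chr11:64269830-64284704, minus strand), whose protein is held by 14-3-3 proteins when AKT and other kinases phosphorylate it, had CPM of 51.6, 38.2 and 46.4 in the vehicle libraries and 33.1, 35.4, 40.3 and 34.7 with c-di-GMP. The groups overlapped, since c-di-GMP replicate 3 lay above vehicle replicate 2. BAD fell by 20.9% (log2 fold change −0.34 ± 0.08, edgeR adjusted p = 0.00223). After GC correction the CPM was 40.0, 35.3 and 40.9 against 36.2, 40.3, 44.3 and 39.0 and the log2 fold change was 0.05 ± 0.06 (edgeR adjusted p = 0.705). BAD lies at 66.3% GC, where 292 neighbouring genes had a median of −0.40. It was also the member that set vehicle replicate 3 farthest apart, at 283 CPM against 36.1 to 48.5, and with 8 libraries its value was −1.60 ± 0.68 (edgeR adjusted p = 0.623). The gene GPR137 on the opposite strand covers 23.7% of the exonic bases of BAD and held 84.1% as many counts. GPR137 fell too, by 0.25 on the log2 scale (edgeR adjusted p = 0.00184). Because the strand setting of the counting is not given, reads of the pair may not have been told apart where they overlap.

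BCL2L11 (ENSG00000153094, chr2:111119378-111168447, plus strand) encodes BIM, a BH3-only protein that binds all of the anti-apoptotic members. Its CPM was 15.5, 16.7 and 18.3 in the vehicle libraries and 19.8, 19.3, 17.0 and 18.6 with c-di-GMP. The groups overlapped, and the log2 fold change was 0.15 ± 0.08, with a 95% interval of −0.01 to 0.32 (edgeR adjusted p = 0.166). After GC correction it was 0.09 ± 0.08 (edgeR adjusted p = 0.468), and with 8 libraries 0.27 ± 0.16 (edgeR adjusted p = 0.623). It was called in none of the alternatives for the 7 or the 8 libraries. MIR4435-2HG, a long noncoding RNA on the opposite strand, covers 10.9% of its exonic bases and held 411% as many counts, with a log2 fold change of −0.03 (edgeR adjusted p = 0.749).

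IER3 (ENSG00000137331, chr6:30743199-30744554, minus strand), the early response gene, was the only member called lower in all 17 alternatives for the 7 libraries. Its CPM was 644, 548 and 577 in vehicle replicates 1, 2 and 4, and 461, 434, 450 and 447 with c-di-GMP. The lowest vehicle library stood well above the highest treated one. IER3 fell by 24.0% (log2 fold change −0.40 ± 0.05, 95% interval −0.49 to −0.30, edgeR adjusted p = 1.28e-06), the member with the smallest p and the 100th smallest of 15647 genes. In bulk RNA, fewer cells that express a gene and less RNA per cell cannot be told apart. After GC correction the CPM was 564, 531 and 550 against 482, 458, 467 and 473, still without overlap, and the fall was 14.4% (−0.22 ± 0.03, edgeR adjusted p = 2.28e-05). With gene length also corrected it was 19.7% (−0.32 ± 0.03, edgeR adjusted p = 4.01e-08). Over the 17 alternatives its log2 fold changes ran from −0.45 to −0.22 and its adjusted p from 7.23e-13 to 0.00765. Among 920 genes within 1 percentage point of its GC content of 58.5%, the median was −0.18 and IER3 stood at percentile 12.5. With 8 libraries the value was −0.85 ± 0.33 (edgeR adjusted p = 0.623), and vehicle replicate 3, at 1385 CPM, lay above the other vehicle libraries at 518 to 606. IER3-AS1, an antisense transcript that was not listed, shares 26.5% of its exonic bases.

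**Figure D3:**
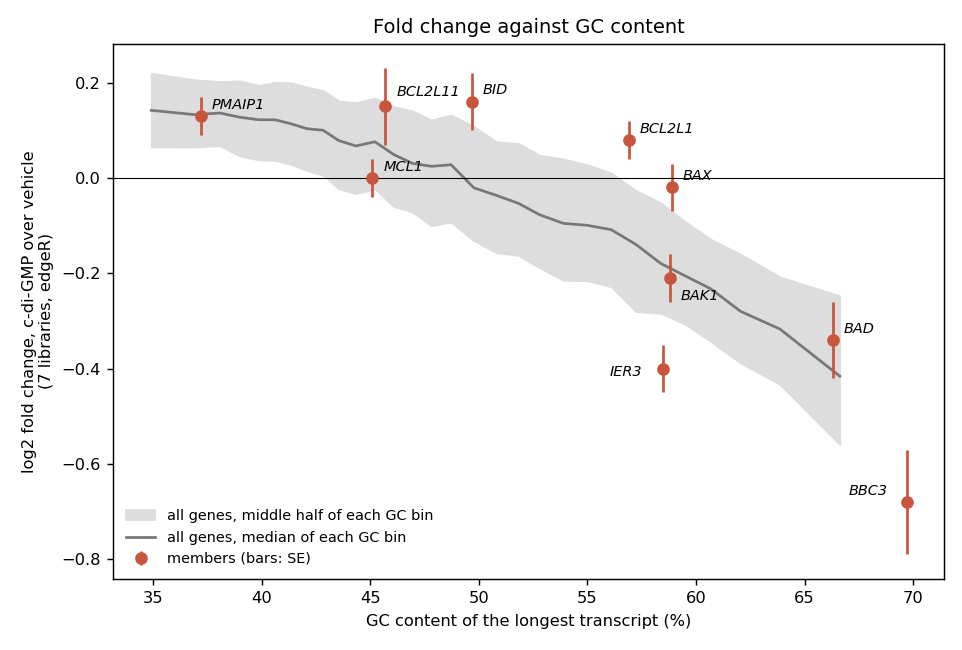
Log2 fold change (7 libraries, edgeR, bars are SE) of the 10 members against the GC content of the longest transcript, with the median (line) and the middle 50% (band) of all genes in bins of GC content. BAD, BAK1 and PMAIP1 lie within the band of all genes, IER3 lies below it, BCL2L1, BAX and BID lie above it, and BBC3 lies to the right of the last bin.

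Across the 10 members, log2 fold change and GC content had a Spearman rho of −0.77, a description over genes measured in the same 7 libraries. Set against the median of genes of like GC content, 3 members lay 0.17 to 0.21 higher (BCL2L1, BAX and BID), IER3 lay at −0.21, and the other 6 lay between −0.11 and 0.09. The part of GC content in these fold changes was not tested.

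In vehicle replicate 3 the members spread widely, on the 8-library scaling. Relative to the median of the other vehicle libraries, BAD was 6.41-fold, BAX 3.88-fold, IER3 2.55-fold, BCL2L1 2.39-fold and BID 2.09-fold. BAK1 was 1.28-fold and BBC3 1.19-fold, whereas MCL1 was 0.805-fold, BCL2L11 0.702-fold and PMAIP1 0.567-fold. Pro-apoptotic and anti-apoptotic genes were found on both sides. Across 15415 genes the same ratio had a Spearman rho of −0.31 with gene length and −0.02 with GC content. BAD, at 1708 bases, stood at percentile 89.3 of genes of similar length and PMAIP1, at 2235 bases, at percentile 16.2. The part of gene length in these ratios was not tested.

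**Figure D4:**
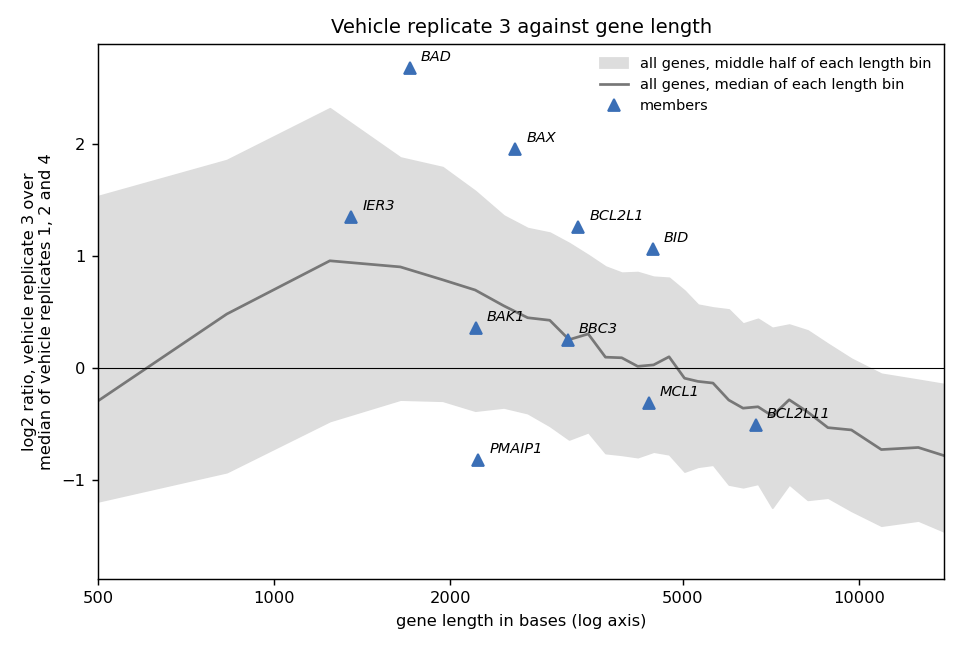
Log2 ratio of vehicle replicate 3 to the median of vehicle replicates 1, 2 and 4 for the 10 members against gene length (log axis), with the median (line) and the middle 50% (band) of all genes in bins of length. BAD, BAX, BCL2L1 and BID lie above the band, and PMAIP1 lies below it.

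Of the 3 members with the smallest p, the genes with the most similar profile over the 7 libraries were sought among 9555 protein-coding genes of at least 10 CPM. For IER3 they were STK25 (Pearson r 0.999), SRC (0.999) and ARAP1 (0.998), and 811 genes reached 0.95. For BBC3 they were FBXO46 (0.994), PLIN3 (0.993) and STK11 (0.991), with 253 genes at 0.95 or more. For BAK1 they were NFKB2 (0.998), ARHGAP23 (0.998) and STIM1 (0.997), with 829 such genes. The 9 genes named had log2 fold changes of −0.55 to −0.10. These profiles share the libraries, their depth and the difference between groups, so they are descriptions.

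Other genes of the pathway were taken as 8 lists with 94 genes, of which 90 were tested. In the 7 libraries 23 were called higher and 18 lower, beside 29.6% of all genes (13.5% higher and 16.2% lower). After GC correction 15 were called higher and 10 lower, beside 15.2% of all genes (8.58% higher and 6.62% lower). The counts of single lists below are to be read beside the same shares. With gene length corrected as well, 13 were called higher and 9 lower, beside 13.4% of all genes, and a named gene whose GC-corrected call that fit changes is given with its value. With all 8 libraries edgeR called none of the 90 (6 at an unadjusted p under 0.05), DESeq2 called 2 and limma-voom with quality weights called 42. In the 7 libraries the median log2 fold change of the 90 was 0.02, and 0.01 after GC correction. Fold changes of single pathway genes below are from the 7 libraries, and vehicle replicate 3 turned some of them. With all 8 libraries CYCS stood at −0.72 ± 0.54 (SE), MTCH2 at −0.34 ± 0.36, SKP1 at −1.56 ± 0.84, UBE2K at −0.10 ± 0.23 and YWHAB at −0.26 ± 0.33. BCAP31 (−0.39), SFN (−1.19) and FADD (0.08 ± 0.48) turned as well. Of the genes named below, VDAC2 (−0.30), YWHAE (−0.12), AKT2 (0.05) and PRKACA (0.16) also changed sign there. So did MYC (0.09), FOXO3 (0.01), BCL2 (0.18) and BCL2A1, the last to the lower side. Others kept their sign, such as VDAC3 (0.10 ± 0.16), PIM1 (−0.48 ± 0.12) and JUN (−0.13 ± 0.27).

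**Figure D5:**
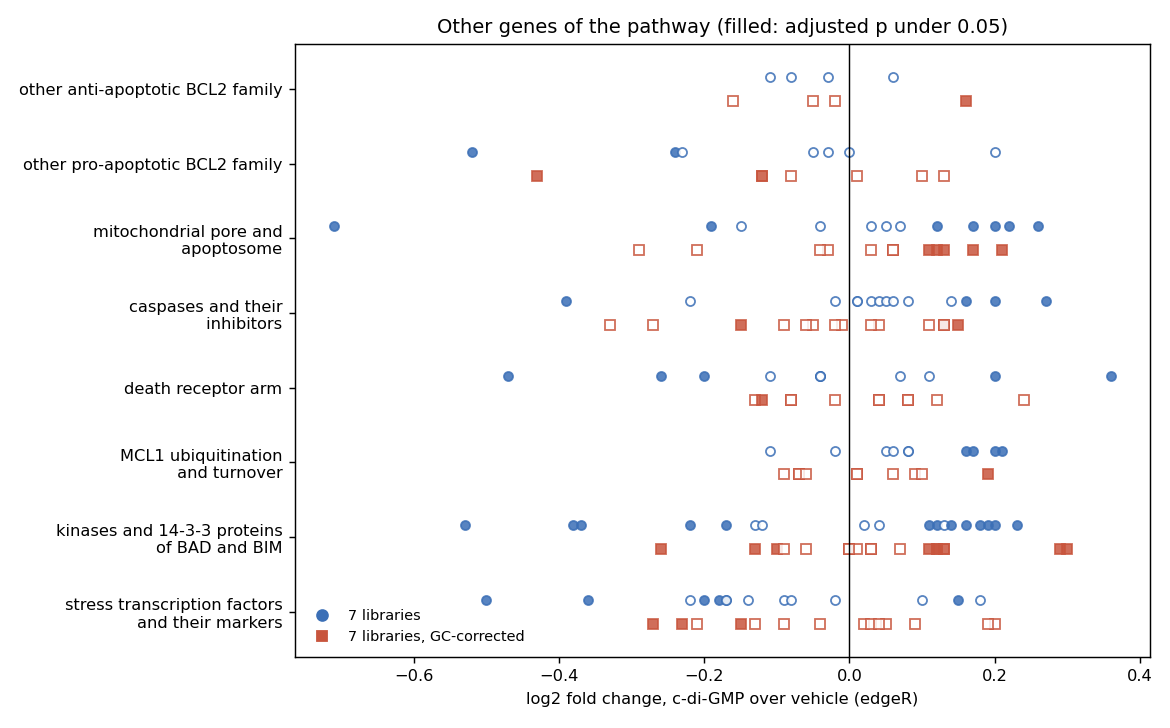
Log2 fold change of the tested genes of each pathway list (7 libraries, edgeR), before (circles) and after (squares) GC correction, filled where the adjusted p is under 0.05. Filled symbols lie on both sides of 0 in the kinase and 14-3-3 list. They lie only on the right in the list for MCL1 turnover, where 1 gene is filled after the correction.

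None of the 4 other anti-apoptotic family genes tested was called before GC correction. BCL2 itself, the founding member, stood at −0.11 ± 0.09 (edgeR adjusted p = 0.417) with a mean of 14.5 CPM in the vehicle libraries, and BCL2A1 at 0.06 ± 0.12. BCL2L12 stood at −0.03 ± 0.06 and rose after the correction (0.16 ± 0.05, edgeR adjusted p = 0.0211), but not with length corrected as well (0.09, edgeR adjusted p = 0.207). Of 7 other pro-apoptotic family genes tested, 2 fell before the correction (BMF and BOK) and 2 after it (BMF and BNIP3L, the latter at 0.00 ± 0.04 before and −0.12 ± 0.03 after). BMF, a BH3-only gene, averaged 6.02 ± 0.347 CPM (SD, n = 3) in the vehicle libraries. Its average was 4.20 ± 0.621 CPM (SD, n = 4) in the treated ones, and it fell without and with GC correction (−0.52 ± 0.14 and −0.43 ± 0.13, edgeR adjusted p = 0.00573 and 0.0313). BOK, an effector relative of BAX, fell only before it (−0.24 ± 0.06, and 0.13 ± 0.05 with an edgeR adjusted p of 0.110 after it).

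Downstream of the effectors, 5 of 12 genes of the mitochondrial pore and apoptosome rose (CYCS, MTCH2, VDAC1, VDAC2 and VDAC3) and 2 fell (ENDOG and HTRA2). After GC correction none fell and 5 rose, with BCAP31 (0.21 ± 0.04) in place of VDAC2. CYCS, which encodes cytochrome c, rose by 0.22 ± 0.04 on the log2 scale (0.12 ± 0.03 after correction, edgeR adjusted p = 0.000358 and 0.0131), and VDAC3, a channel of the outer membrane, by 0.26 ± 0.05 (0.17 ± 0.04 after it, 0.000368 and 0.00704). MTCH2, an outer membrane protein that recruits BID, rose by 0.20 ± 0.04 (0.11 ± 0.03, edgeR adjusted p = 0.00105 and 0.0352), and was not called with length corrected as well (0.06 ± 0.03, 0.227). ENDOG, a mitochondrial nuclease, fell before correction (−0.71 ± 0.11) and just missed the threshold after it (−0.29 ± 0.10, edgeR adjusted p = 0.0502), and it was called lower with length corrected as well (−0.39 ± 0.10, edgeR adjusted p = 0.00645). Of 14 caspases and inhibitors 3 rose and 1 fell, and after correction 2 rose and 1 fell. BIRC2, an inhibitor of apoptosis protein, rose before correction (0.16 ± 0.04) and was not called after it (0.03 ± 0.03, edgeR adjusted p = 0.577).

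Of 11 genes of the death receptor arm, upstream of BID, 2 rose (TNFSF10 and FAS) and 3 fell, and after GC correction none rose and 1 fell, CFLAR (−0.12 ± 0.04, edgeR adjusted p = 0.0179), an inhibitor of caspase 8, which was not called with length corrected as well (−0.04 ± 0.04, 0.499). TNFSF10, which encodes the ligand TRAIL, rose by 0.20 ± 0.04 and the adaptors TRADD, FADD and TRAF2 fell (−0.47 ± 0.09, −0.26 ± 0.07 and −0.20 ± 0.05, edgeR adjusted p of 0.000391 to 0.0045), and none of these 4 was called after correction. Of 10 genes of MCL1 ubiquitination and turnover 4 rose (SKP1, UBE2K, CUL1 and UBE2Q1) and none fell, and 1 was called after correction, UBE2Q1 (0.17 ± 0.05 before and 0.19 ± 0.04 after, edgeR adjusted p = 0.00998 and 0.00348). SKP1, a subunit of SCF ubiquitin ligases, stood at 0.21 ± 0.04 before and 0.10 ± 0.04 after (edgeR adjusted p = 0.00097 and 0.0589), and was called higher with length corrected as well (0.16 ± 0.04, edgeR adjusted p = 0.00382). Without vehicle replicate 4, CUL1 was not called even before the correction (log2 fold change 0.13).

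Of 18 kinases and 14-3-3 proteins that act on BAD or BIM, 8 rose and 5 fell (AKT1, AKT2, PRKACA, PIM1 and PIM3), and after GC correction 6 rose and 3 fell. PIM1 and PIM3, kinases that phosphorylate BAD, fell in both fits (PIM1 −0.38 ± 0.05 and −0.26 ± 0.04, PIM3 −0.53 ± 0.06 and −0.13 ± 0.04), as did AKT1 (−0.37 ± 0.05 and −0.10 ± 0.03), with edgeR adjusted p after correction of 0.00019, 0.044 and 0.036. With length corrected as well, AKT1 was not called (−0.05 ± 0.03, edgeR adjusted p = 0.356) and PIM1 and PIM3 were. The 14-3-3 gene YWHAB rose in both (0.20 ± 0.04 and 0.12 ± 0.03, edgeR adjusted p = 0.000385 and 0.0109), as did YWHAE and YWHAH (the latter not with length corrected as well, 0.07 ± 0.03, 0.161), whereas SFN, also a 14-3-3 gene, was called only after correction (0.02 ± 0.05 and 0.30 ± 0.04, edgeR adjusted p = 0.824 and 4.02e-06). Of 14 stress transcription factors and their markers 1 rose (MDM2) and 5 fell (JUN, TRIB3, CDKN1A, E2F1 and MYC), and 3 fell after correction (JUN, TRIB3 and FOXO3). With length corrected as well, FOXO3 was not called (−0.12 ± 0.05, edgeR adjusted p = 0.101) and MYC was (−0.13 ± 0.04, 0.0209). JUN, a component of AP-1, fell in both fits (−0.36 ± 0.05 and −0.23 ± 0.03, edgeR adjusted p = 5.13e-06 and 5.59e-05), as did TRIB3, a target of the integrated stress response (−0.50 ± 0.08 and −0.27 ± 0.07, 5.06e-05 and 0.009). CDKN1A, which encodes an inhibitor of cyclin-dependent kinases, fell only before the correction (−0.20 ± 0.05, and −0.04 ± 0.03 with an edgeR adjusted p of 0.485 after it).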

How the data were processed

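RNA from 8 libraries, 4 per group, was measured by sequencing of libraries made with the NEBNext Ultra kit, per the labels' protocols. The authors deposited read counts per gene and FPKM per gene, with the gene length in bases per the file headers, in tables that each list 16383 genes. Of these, 14707 genes are in both, so FPKM percentiles and the alternative on FPKM rest on a partly different set of genes. The submitters' processing notes name HISAT2 2.0.5, featureCounts 1.5.0-p3, DESeq2 1.20.0, CASAVA 1.8 and fastp, without their roles. These notes name a mouse build, but the gene identifiers are human, and 16363 of the 16383 counted genes have the same coordinates in GENCODE v29 on GRCh38. The strand setting of the counting is not given in the sources used here.

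In R 4.3.3, edgeR 4.0.16 was used to drop genes with low counts (filterByExpr, at least 10 counts and a total of 15), to scale the libraries by TMM and to fit the quasi-likelihood model of treatment over all genes. A gene was called at a Benjamini-Hochberg adjusted p under 0.05. The fits were made with 8 libraries and with 7, without vehicle replicate 3. To correct for GC, the deviations of a library from the means over libraries were smoothed against transcript GC content (longest transcript, lowess with a span of 0.3), and the smooth curve was used as an offset. The length correction added a like curve on gene length. Deposited FPKM values were used for levels between genes and, as log2(FPKM + 0.1) in limma 3.58.1, as an alternative. DESeq2 1.42.0, limma-voom with quality weights, other scalings, no filter and each library left out were further alternatives. The edgeR fits were also run on simulated counts without a deviating library or a GC trend, so that run cannot speak to either. With only 7 or 8 libraries and 3 or 4 a group, small changes of low genes such as BBC3 are the least precise.

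The text names all 10 members, up to 4 genes of each list with the smallest p in the 7 libraries, and for 3 members the 3 genes of most similar profile. ABALON, GPR137, MIR4435-2HG, IER3-AS1 and BAK1P1 were named in addition since they overlap or copy a member, and the remaining genes of small counts of called pathway genes were named after their values were seen. Results of some list genes are not reported here. The members, lists and tests were chosen with earlier results of these data known.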

Additional observations from a re-analysis of the deposited data

Results flagged for a closer look

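In groups of 4 libraries, the highest or lowest library was set against the rest by Dixon's ratio of the gap to the range. The 52 groups tested were both groups of each member and the c-di-GMP group of each other named pathway gene. Of these, 7 were past its 95% critical value, where chance gives about 1 in 20 for independent groups. The vehicle groups are not independent, since all hold vehicle replicate 3, which lay outside the other libraries for 87.8% of 15415 genes. Flags there thus describe that library, and no share over all genes is set beside them. In 6 of the 7 flagged groups the library was vehicle replicate 3, for 6 of the 10 members on the 8-library scaling. It was high for BAD (283 CPM, with the other vehicle libraries at 36.1 to 48.5), BAX (281 CPM, with 70.9 to 74.9), BCL2L1 (680 CPM, with 272 to 310), BID (78.0 CPM, with 36.5 to 37.8) and IER3 (1385 CPM, with 518 to 606). It was low for PMAIP1 (58.7 CPM, with 103 to 106). The remaining one was UBE2Q1, of the list for MCL1 turnover, in c-di-GMP replicate 3 (74.1 CPM on the 7-library scaling, with 77.0 to 77.3 in the others).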

How the results depend on the processing

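Counts are limited by 1 library and by GC content. With 8 libraries edgeR called 0 genes (960 at an unadjusted p under 0.05), DESeq2 called 101 and limma-voom with quality weights, which gave vehicle replicate 3 a weight of 0.00874, called 5430. Leaving out 1 library gave 0 to 4633 genes and 0 to 6 members, and the upper values are those without vehicle replicate 3. DESeq2 called 1 member and limma-voom 7. With 7 libraries, leaving out a further one gave 3440 to 4826 genes and 4 to 6 members. In place of the 4633 genes called there, separate fits called 2378 with GC correction (share of higher calls 56.4%, against 45.5% without it), 2097 with GC and length correction, which called 3 members, and 1598 with GC correction and the replicate block, which also called 3. Under GC correction, 2 to 4 members were called when 1 library was left out, alternatives chosen after seeing the data.

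Whether libraries of the same replicate number were prepared as pairs is not known here, and a correlation cannot show it. The deviations of same-numbered libraries correlated at −0.000341, 0.184, 0.123 and −0.0578 with 8 libraries and at 0.0101, −0.00525 and 0.00402 with 7. With the replicate block alone 0 and 4093 genes were called, and BID (0.13, edgeR adjusted p = 0.151) and PMAIP1 (0.13, 0.0501) were no longer past the threshold in the 7 libraries.

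Directions turned in these cases, beside those of pathway genes with all 8 libraries given above. With 8 libraries, BCL2L1 was at 0.08 without vehicle replicate 3 and 0.14 by limma-voom, MCL1 at −0.00 and −0.02, and BID at 0.16 and 0.17, and the fits with 1 library left out ranged from −0.47 to 0.08, −0.00 to 0.12 and −0.29 to 0.16. BID was also at 0.05 with library totals, a scaling that moved the median of all genes from −0.0494 to 0.0839. With 7 libraries, MCL1 was at 0.00 with DESeq2 size factors, library totals, DESeq2 or without c-di-GMP replicate 2, and at 0.02 on FPKM or without vehicle replicate 4. Under GC correction, GC correction with the block, and GC and length correction, BAX was at 0.16, 0.17 and 0.10, PMAIP1 at −0.01, −0.01 and −0.07, BCL2A1 at −0.05, −0.09 and −0.15, BCL2L12 at 0.16, 0.14 and 0.09, BOK at 0.13, 0.11 and 0.08, TRAF2 at 0.04, 0.03 and 0.01, and E2F1 at 0.09, 0.10 and 0.04. BAD turned under GC correction alone (0.05). BCL2A1 ranged from −0.04 without vehicle replicate 4 to 0.15 without vehicle replicate 1, and BCL2L12 at 0.03 without vehicle replicate 1 and 0.00 by limma-voom. The cause was not tested. IER3, BAK1, BBC3 and BCL2L11 kept their direction in all of the alternatives for 7 and 8 libraries.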
